A study of Homo sapiens with 3 samples.

Results

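The genes described here are 48 lysosome and autophagy genes, most of them known or proposed targets of TFEB, and they were examined for binding of CRY1 in C4-2 cells. They were taken as a list of 48 gene symbols out of 20163 protein-coding genes. The rule itself used no measured value, but the genes were chosen with earlier results of these data known. Each was examined for a CRY1 summit, the base of highest read pileup in a peak, within 5 kb of any of its annotated transcription start sites (TSS), and separately for a summit within 50 kb of the gene body. C4-2 is a human prostate cancer cell line able to grow without androgen. The chromatin immunoprecipitation and sequencing (ChIP-seq) series comprised 2 CRY1 immunoprecipitations labelled Veh and 1 input library, all from C4-2 cells kept in hormone-proficient medium, with no other treatment, genotype or time to compare. Binding was given as 1 list of 2551 peaks called on both immunoprecipitations together, so no value here has a replicate error, read depth is unknown, and the cell line is a single model. Intervals below are 95% Wilson intervals, or order-statistic intervals for medians, and these and the limits given for counts of 0 cover the counting of genes, sites or peaks only.

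TFEB, TFE3, MITF and TFEC are basic helix-loop-helix leucine zipper factors that switch on lysosome and autophagy genes when nutrient signalling through mTORC1 falls. They bind the CLEAR element, an E-box CACGTG set in a longer palindrome with GT in front and AC behind. The clock activators CLOCK and BMAL1 bind the same core of letters, and within the clock CRY1 acts as a repressor of CLOCK and BMAL1. The lysosome genes therefore carry promoter E-boxes of a kind that belongs to a different pathway from the clock, and the comparison asks how far CRY1 peaks lie at them.

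The sequences that carry the result are E-boxes in or near promoters, printed as 30 bases from the GRCh37 (hg19) assembly, 5′ to 3′ along the strand of the gene, with CACGTG in capitals. The first set shows the E-box closest to the summit in the 4 genes where a promoter E-box lay within 50 bp of a summit, in FLCN, whose E-box lay upstream of the promoter window, and in CLCN7, where the distance was slightly over 50 bp. The coordinates are chr11:66336183-66336212 (minus strand) for CTSF, chr1:39325539-39325568 (minus) for RRAGC, chr5:131132868-131132897 (minus) for FNIP1, chr13:113951383-113951412 (plus) for LAMP1, chr17:17140985-17141014 (minus) for FLCN and chr16:1525039-1525068 (minus) for CLCN7.
CTSF: acatataacaagCACGTGatagaggtcagt
RRAGC: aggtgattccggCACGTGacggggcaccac
FNIP1: ccccgcccctgcCACGTGacgggacccgcc
LAMP1: gccgctgcgggtCACGTGccgctgcgggtc
FLCN: ccttctccgcgtCACGTGacggccgtctcc
CLCN7: cccgtcgcgcgtCACGTGgccgccggcgcg

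The second set shows promoter E-boxes of the CLEAR type, here meaning TCACGTGA, at genes with no summit within 5 kb. They lie at chr19:7587484-7587513 (plus strand) for MCOLN1, chr17:78075337-78075366 (plus) for GAA, chr9:117349979-117350008 (plus) for ATP6V1G1, chr11:118938483-118938512 (plus) for VPS11 and chr20:44519937-44519966 (plus) for CTSA.
MCOLN1: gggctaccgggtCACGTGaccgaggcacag
GAA: gctcccgccggtCACGTGacccgcctctgc
ATP6V1G1: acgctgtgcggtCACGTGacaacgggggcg
VPS11: gctggctcagctCACGTGacaaagctcccg
CTSA: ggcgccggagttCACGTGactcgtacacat

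The third set shows, for comparison, E-boxes at the summits of the clock gene NR1D1 and of 2 genes of the glycolysis and hypoxia list, HIF1A and ANKRD37. They lie at chr17:38255399-38255428 (minus strand) for NR1D1, chr14:62161950-62161979 (plus) for HIF1A and chr4:186317821-186317850 (plus) for ANKRD37. Each summit had CACGTG within 50 bp, as did 9 of 41 summits near the listed clock genes. The summits of the strongest PER2 and PER3 peaks had none there.
NR1D1: tcgttggggagcCACGTGcgagaggcacac
HIF1A: aacacagacgagCACGTGagcgtcgcagcc
ANKRD37: ggcgccgggctcCACGTGccagtgtttgtg

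A CRY1 summit lay within 5 kb of a TSS in 13 of the 48 genes, or 27.1% (interval 16.6 to 41.0%). Among all protein-coding genes the share was 8.22%. The 13 were FLCN, HEXA, NAGLU, CLCN7, CTSF, RRAGC, ATP6V0D1, LAMP1, BECN1, FNIP1, GABARAP, ATP6V0C and ATG9A, in order of distance from 2 bp to 3433 bp. In 11 of them the summit lay within 500 bp of a TSS, and ATP6V0C, at 1394 bp, and ATG9A, at 3433 bp, were the exceptions. ATG9A was also the gene just inside the limit, and ATP6V0B, at 15486 bp, was the gene just outside it.

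Other values of the 48 genes also differed from those of all genes. The 48 genes had a median of 9.5 annotated TSS each against 5 over all protein-coding genes, a median promoter GC content of 67.5% against 63.7%, and a median of 28.5 CpG dinucleotides in the promoter window against 23. A wider list of 116 further lysosome and autophagy genes, described at the end, had medians of 11 TSS, 66% GC and 27 CpG. Its share with a summit within 5 kb was 8.62%. The part of CpG content, GC content and the number of TSS in the share of the 48 genes was not tested. Taking 1 canonical transcript per gene left 9 of the 48 genes with a summit within 5 kb in place of 13. Over all protein-coding genes the share was then 6.71% in place of 8.22%. BECN1, ATP6V0D1, ATP6V0C and ATG9A were the genes lost.

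The median distance from a TSS to the nearest summit was 115.7 kb in the 48 genes (interval 46.5 to 228 kb) and 288 kb over all protein-coding genes. The clock list of 25 genes had a median of 0.310 kb, with 16 genes within 5 kb (64%). The glycolysis and hypoxia list of 36 genes had a median of 24.8 kb, with 12 genes within 5 kb (33.3%). The lysosome and autophagy genes thus stood between these lists and the genome as a whole in median distance. Most of them had no summit nearby: 35 had none within 5 kb, 28 had none within 50 kb of the gene body either, and for 6 the nearest summit was over 1 Mb from a TSS.

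**Figure D1:**
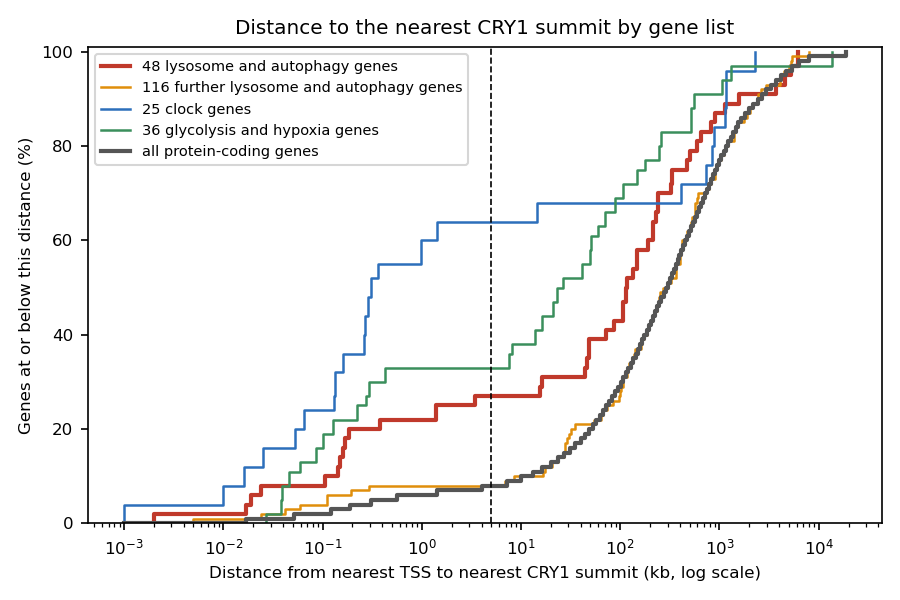
Cumulative share of genes (%) against the distance from the nearest TSS to the nearest CRY1 summit (kb, log scale) for the 48 lysosome and autophagy genes, 116 further lysosome and autophagy genes, 25 clock genes, 36 glycolysis and hypoxia genes and all protein-coding genes; the dashed line marks 5 kb. At 5 kb the curves stood at 27.1%, 8.62%, 64%, 33.3% and 8.22% in that order, and the curve of the further genes lay along that of all genes.

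By role, 3 of the 5 nutrient-sensing genes had a summit within 5 kb, beside 8.22% of all protein-coding genes and 2 of 20 nutrient-sensing genes in a wider list of lysosome and autophagy genes described at the end. FLCN and FNIP1 encode folliculin and its partner, which together act on the RagC and RagD GTPases at the lysosome surface, and RRAGC encodes RagC. The RRAGC peak (chr1:39325222-39325879) was enriched 7.65-fold over background (−log10 q 12.3). Its summit was placed 144 bp upstream of the TSS and 34 bp from the E-box shown above. The same summit lay 4 bp from the start of RRAGC-DT, a divergent transcript. The FNIP1 peak (chr5:131132514-131133212) had a fold enrichment of 7.35, and its summit lay 184 bp upstream of the TSS and 11 bp from the printed E-box.

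FLCN had 2 peaks within 5 kb of a TSS. The one at chr17:17140918-17141034 had a fold enrichment of 5.09, and its summit lay 483 bp upstream of the canonical TSS and 34 bp from the full CLEAR palindrome printed above. The other, at chr17:17140417-17140569, had its summit 12 bp upstream of the canonical TSS and 2 bp from another annotated start, held no E-box, and was among the weakest in the list, at a fold enrichment of 2.65 and −log10 q 1.34 (rank 2545 of 2551 by fold). The paralogues FNIP2 and RRAGD had no CACGTG in the promoter window, and their nearest summits lay 6242 kb and 3732 kb away.

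Of the V-ATPase genes, which encode the proton pump that acidifies the lysosome, 2 of 6 of the membrane V0 sector and 0 of 7 of the cytosolic V1 sector had a summit within 5 kb. The share was 8.22% over all protein-coding genes, and none of the 10 V-ATPase genes in the wider list had such a summit. A count of 0 of 7 allows a share of up to 42.9%, taking 3 counts of the total as the limit, as for the other counts of 0 below. The ATP6V0D1 peak (chr16:67475317-67476032) had the highest fold enrichment of the 16 peaks within 5 kb of a TSS of the 48 genes, at 7.99-fold and −log10 q 15.9 (rank 377). It lay in an intron, 39576 bp downstream of the canonical TSS and 151 bp from an alternative start, 3 bp from an E-box flanked by A and T (ACACGTGT). The CLEAR-type E-box of the ATP6V0D1 promoter lay 39632 bp from that summit. The ATP6V0C summit (chr16:2570335-2570545, fold enrichment 5.18) lay 6441 bp downstream of the canonical TSS and at the start site of AMDHD2 (0 bp), a neighbouring gene of amino sugar metabolism.

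All 6 V0 genes had a summit within 50 kb of the gene body, while 0 of the 7 V1 genes did. Beside this stand 20 of all 48 genes (41.7%, interval 28.8 to 55.7%) and 22.1% of all protein-coding genes. The positions at ATP6V0D1 and ATP6V0C are given above. At the other V0 genes, too, the summits lay closer to the starts of other genes or inside the gene itself. ATP6V0B shared the region with a peak 58 bp from the CCDC24 start (fold enrichment 5.94), and ATP6V0A1 with the 2 NAGLU peaks, 13.967 kb and 18.8 kb from its body. ATP6V0E1 had 3 peaks at the CREBRF start, the strongest with a fold enrichment of 9.003, and ATP6V0D2 had 1 peak within the gene (chr8:87159346-87159461, fold enrichment 3.89).

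The other 3 genes that had a summit within 50 kb of the body and none within 5 kb of a TSS were UVRAG, TPP1 and VPS18. UVRAG, which takes part in autophagosome maturation, lay 46.5 kb from 1 of 2 peaks at the DGAT2 start, with fold enrichments of 11.1 and 3.13. TPP1, a lysosomal tripeptidyl peptidase, lay 45.6 kb from a peak at the DNHD1 start with a fold enrichment of 7.28. VPS18, a subunit of the HOPS and CORVET tethers, lay 34.1 kb from a peak whose nearest coding start was that of DLL4, with a fold enrichment of 4.69. Genes with a summit within 5 kb could also have others within 50 kb of the body. These were 1 each at FLCN (8.56-fold, 185 bp from the PLD6 start), CLCN7 (4.51-fold) and ATP6V0D1 (6.69-fold), and 2 each at GABARAP (5.24-fold and 6.18-fold) and LAMP1. UVRAG was the gene just inside the 50 kb limit, and MCOLN1, at 85.8 kb, was just outside it.

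Among the lysosomal enzymes, summits within 5 kb were found at 1 of 5 proteases and 2 of 7 glycosidases or sulfatases. The share was 8.22% over all protein-coding genes, and the count was 4 of 28 lysosomal enzymes in the wider list. CTSF encodes the cysteine protease cathepsin F. Its peak (chr11:66336072-66336375) was enriched 6.09-fold (−log10 q 8.998). Its summit was placed 105 bp upstream of the TSS and 15 bp from the printed E-box. CTSD, CTSB and CTSA, which encode cathepsins D, B and A, each held a promoter E-box, and their nearest summits lay 239.8 kb, 324 kb and 466 kb away.

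HEXA encodes the alpha subunit of beta-hexosaminidase. Its peak at the start of the gene (chr15:72668257-72668341) was weak, with a fold enrichment of 3.34, and its summit lay 59 bp downstream of the canonical TSS and 54 bp from a promoter E-box. The second HEXA peak (chr15:72651252-72651397, fold enrichment 5.04) lay in an intron with the variant letters CATGTG and CACGTT, and no CACGTG, at its summit. NAGLU, which removes terminal N-acetylglucosamine from heparan sulfate, had a peak in a coding exon 308 bp downstream of the TSS (chr17:40688497-40688588, fold enrichment 5.52) and another in an intron (chr17:40693325-40693428, 4.60 by fold enrichment). Their summits lay 23 bp and 29 bp from an E-box, and the E-box of the NAGLU promoter itself lay 353 bp from the first.

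LAMP1, an abundant glycoprotein of the lysosomal membrane, had 6 E-boxes within its promoter window, the most of any of the 48 genes. The CRY1 peak at chr13:113951338-113951429 (plus strand) was enriched 5.01-fold (−log10 q 4.67). Its summit lay 162 bp upstream of the TSS. The peak held 4 of the E-boxes, each preceded by GT and spaced 16, 17 and 17 bases apart, and the whole peak is printed to show the array.
LAMP1 peak: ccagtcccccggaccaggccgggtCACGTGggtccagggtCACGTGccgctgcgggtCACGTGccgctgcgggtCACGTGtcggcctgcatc

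The other 2 LAMP1 E-boxes were of the CLEAR type. They were centred 26 bp upstream and 1 bp downstream of the TSS, 136 bp and 163 bp from the summit and outside the peak. LAMP1 also had 2 peaks inside the gene, 7268 bp and 6763 bp from its nearest TSS and so outside the 5 kb limit (chr13:113968326-113968982 and chr13:113969062-113969434). Their fold enrichments were 6.69 and 5.35, both above that of the promoter peak, and neither summit had a CACGTG within 50 bp. LAMP2, the paralogue, had no promoter CACGTG and its nearest summit was 4579 kb away. CLCN7, a chloride and proton exchanger of the lysosomal membrane, had a peak over its start (chr16:1524687-1525102, fold enrichment 7.45, −log10 q 13.9). The CLCN7 summit lay 27 bp downstream of the TSS in the 5′ UTR and 51 bp and 71 bp from its promoter E-boxes. MCOLN1, the lysosomal calcium channel, had 2 CLEAR-type E-boxes at its promoter and its nearest summit 86.4 kb from a TSS.

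The 10 autophagy genes held no CACGTG in the promoter window, and 3 of them had a summit within 5 kb. Beside this stand 8.22% of all protein-coding genes and 2 of 34 autophagy genes in the wider list. BECN1 encodes beclin 1 of the autophagy lipid kinase complex. The BECN1 summit (chr17:40985138-40985473, fold enrichment 6.45) lay 167 bp from an alternative BECN1 start, 8882 bp upstream of the canonical one, and 23 bp from the start of PSME3, a proteasome activator gene on the other side. GABARAP encodes a ubiquitin-like protein that is attached to autophagosome membranes. Its peak (chr17:7146106-7146205, fold enrichment 4.85) had its summit 383 bp upstream of the TSS and 234 bp from the nearest E-box. ATG9A encodes a membrane protein of early autophagosomes, and its peak (chr2:220083530-220083712, fold enrichment 4.39) lay 143 bp from the start of ABCB6. The ATG9A summit was 10821 bp downstream of the canonical ATG9A TSS and 5 bp from an E-box, and the BECN1 summit was 192 bp from one. SQSTM1, MAP1LC3B, ULK1, WIPI1, GABARAPL1 and ATG9B had their nearest summits between 107 kb (SQSTM1) and 1128 kb (MAP1LC3B) away.

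At 3 genes, BECN1, ATP6V0C and ATG9A, the coding start nearest to the summit thus belonged to another gene. When each summit was counted only for the protein-coding gene with the nearest TSS, 10 of the 48 genes kept a summit, beside 6.71% of all protein-coding genes. This count was added after the values were seen. Whether a peak between 2 starts acts on either gene was not measured.

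**Figure D2:**
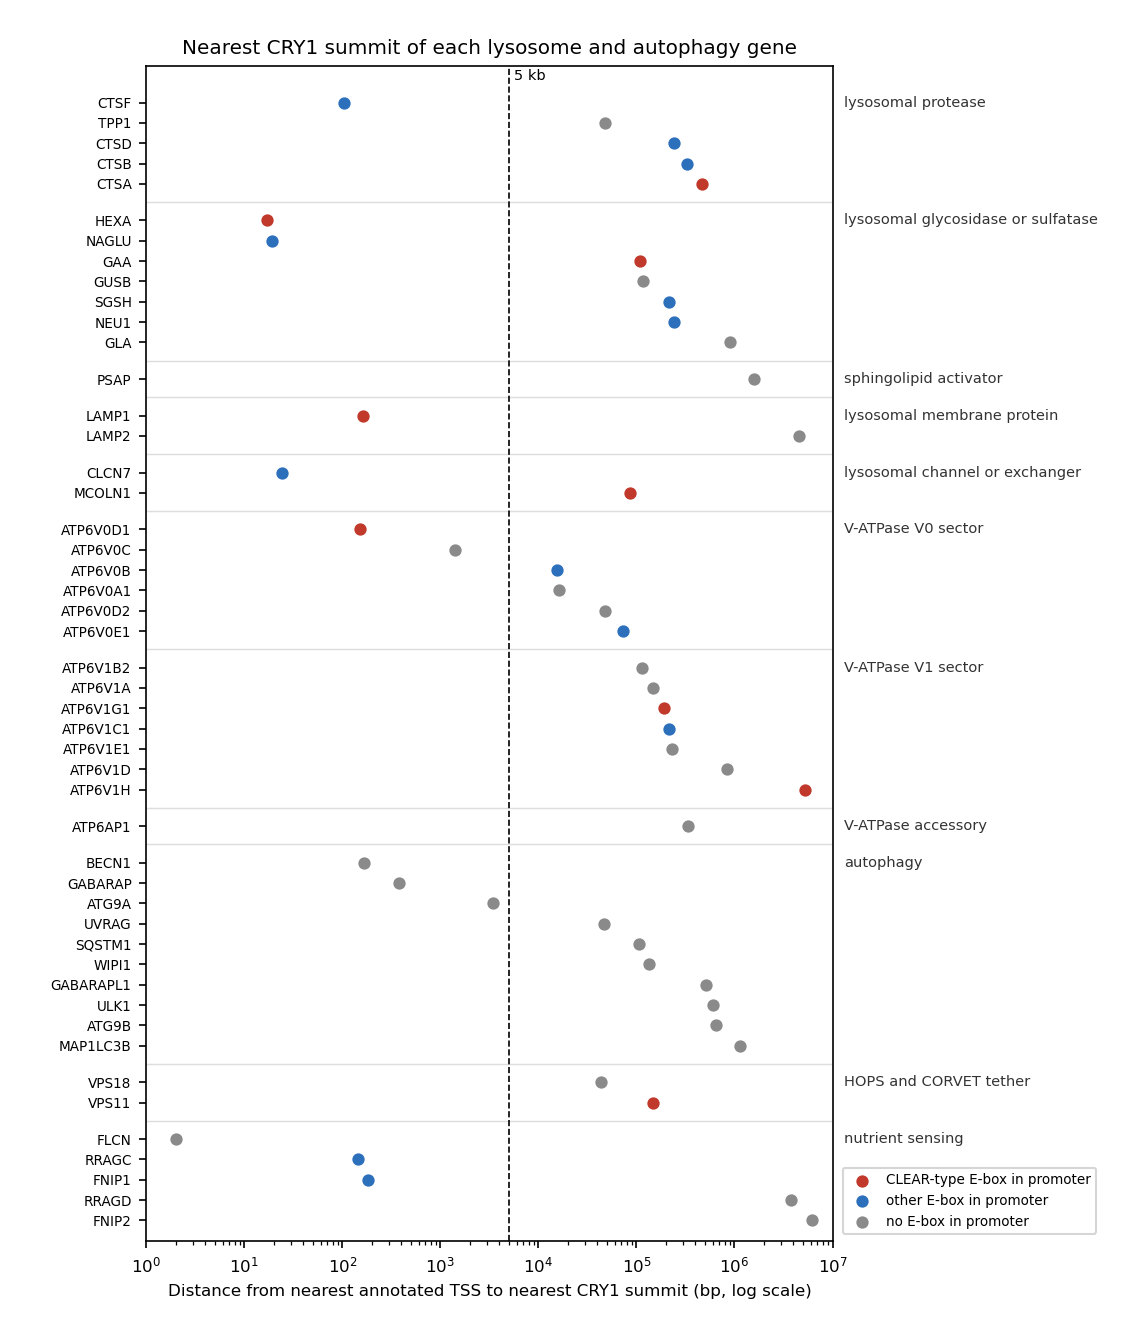
Distance in bp, on a log scale, from the nearest annotated TSS to the nearest CRY1 summit for each of the 48 genes, grouped by role; red, CLEAR-type E-box (flanked by T and A) in the promoter window, blue, another E-box, grey, none, and the dashed line marks 5 kb. The 13 genes left of the line lay between 2 bp and 3433 bp, the 9 red genes fell on both sides, and the 7 V1 genes were all to the right.

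In strength, the peaks near the 48 genes were ordinary for this list. The 16 peaks within 5 kb of a TSS had a median fold enrichment of 5.14 (quartiles 4.78 and 6.67, range 2.65 to 7.99, interval of the median 4.60 to 7.35). All 2551 peaks had a median of 5.18 (quartiles 4.34 and 6.63), so that 7 of the 16 lay above the median and 4 above the upper quartile. None of the 16 reached the highest values at clock genes, where PER2 had a fold enrichment of 22.8, and PER3 and NR1D1 of 17.8 each, with a median of 6.45 over 41 peaks. In the glycolysis and hypoxia list, HIF1A had 13.5, PFKFB3 10.8, ANKRD37 10.1 and LDHA 8.60, with a median of 5.54 over 14 peaks. The −log10 q of the 16 ranged from 1.34 to 15.9 (median 5.08, against 6.02 over all peaks) and their widths from 85 to 716 bp (median 168 bp, against 181 bp).

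**Figure D3:**
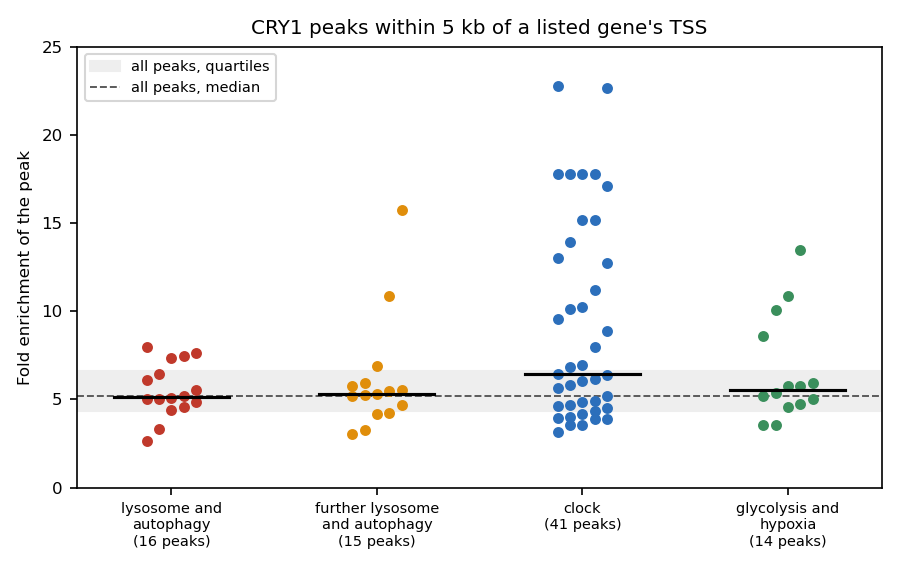
Fold enrichment of each CRY1 peak within 5 kb of a TSS of the listed genes, 1 point per peak, with black bars for list medians, a dashed line for the median of all peaks (5.18) and a grey band for their quartiles (4.34 and 6.63). The 16 peaks of the lysosome and autophagy genes lay between 2.65 and 7.99, while the clock list reached 22.8, the glycolysis and hypoxia list 13.5 and the further lysosome and autophagy genes 15.7.

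The promoter sequences were rich in E-boxes. In the window from 250 bases before to 50 after the canonical TSS, CACGTG was found in 21 of 48 genes (43.8%, interval 30.7 to 57.7%) against 8.76% of all protein-coding genes with such a window. CACGTG reads the same on both strands, so each E-box was counted once. Promoters with 2 or more numbered 11 of 48 (22.9%, interval 13.3 to 36.5%) against 0.966%. Of the 21, 18 held GTCACGTG on either strand (85.7%), as did 39.7% of all promoters with an E-box, 2 of 7 in the clock list and 0 of 6 in the glycolysis and hypoxia list. The GTCACGTG letters contain CACGTG, so these counts overlap. The variant CATGTG was found in 6 of the 48 promoters (12.5%, against 8.18% of all promoters) and CACGTT in 0 (against 5.17%). The genes had been listed as TFEB targets in part because of CLEAR elements, so their E-box counts describe the list.

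The 36 promoter E-boxes lay close to the start. All but 2 were upstream, 26 lay within 100 bp upstream, and the median position was 48 bp upstream (range 190 bp upstream to 4 bp downstream). Where a promoter held several, 11 of the 15 spacings between neighbours were under 50 bases, with a range of 14 to 114.

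The share of genes with a nearby summit was higher with a promoter E-box than without, although the intervals of both shares overlapped in the 48 genes. A summit within 5 kb was found in 8 of the 21 genes with a promoter E-box (38.1%, interval 20.8 to 59.1%) and in 5 of the 27 without (18.5%, interval 8.18 to 36.7%). Over all protein-coding genes the shares were 25.3% with and 6.68% without. With 2 or more E-boxes the counts were 5 of 11 in the 48 genes (45.5%) and 76 of 192 over all genes (39.6%). With 1 they were 3 of 10 and 365 of 1550. At these numbers the intervals of the 48 genes with an E-box held the shares of all genes with one. The interval of the 27 without an E-box, from 8.18%, lay above the 6.68% of all genes without one. The 3 genes with a summit nearer to another coding start were among the 5 of these 27. Lacking an E-box here refers to the promoter window only. A summit at each of FLCN, ATP6V0C and ATG9A lay 34 bp, 31 bp and 5 bp, in that order, from an E-box outside the window. At BECN1 and GABARAP the nearest E-box was 192 bp and 234 bp from the summit. Genes are not replicates, and the list was chosen with earlier results known. Whether either group differs from all genes was therefore not tested. In the clock list, 6 of 7 genes with a promoter E-box had a summit, as did 10 of 18 without.

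**Figure D4:**
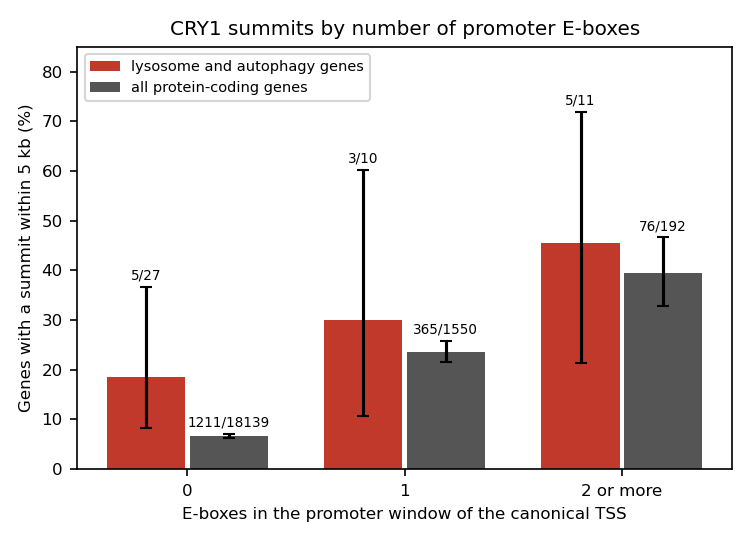
Percentage of genes with a CRY1 summit within 5 kb of a TSS, by the number of E-boxes in the promoter window, for the lysosome and autophagy genes (red) and all protein-coding genes (grey); error bars are 95% Wilson intervals and the counts stand above the bars. The share was 18.5% without and 45.5% with 2 or more E-boxes in the 48 genes, and 6.68% and 39.6% over all genes, with wide and overlapping intervals in the former.

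The E-box genes with no summit within 5 kb numbered 13. They were ATP6V0B, ATP6V0E1, ATP6V1C1, ATP6V1G1 and ATP6V1H of the V-ATPase, the hydrolases GAA, SGSH, NEU1, CTSD, CTSB and CTSA, the channel MCOLN1, and VPS11 of the HOPS and CORVET tethers. Of the genes with GTCACGTG, 6 of 18 had a summit (33.3%), against 25.9% over all genes with these letters. Of the 9 genes with TCACGTGA, 3 did (HEXA, ATP6V0D1 and LAMP1), against 17.4% over all such genes. With GTCACGTG and without TCACGTGA, 3 of 9 of the 48 genes had a summit, the same count as with TCACGTGA, and 31.7% of all genes did.

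Single E-boxes were also counted by their flanks, in a count that was added after the values were seen. Of the 36 promoter E-boxes, 12 had a summit within 100 bp, and they belonged to 6 genes: CTSF, RRAGC, LAMP1, FNIP1, CLCN7 and HEXA. None of the 12 CLEAR-type sites did, which allows a share of up to 25%, while 12 of the 24 with other flanks did. LAMP1 supplied 4 of these 12. Without LAMP1 the counts were 0 of 10 and 8 of 20. E-boxes of 1 promoter share its summit and are not independent.

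The choice of distance bore on this count. Within 50 bp, 0 of 12 and 7 of 24 sites had a summit, and within 200 bp, 3 of 12 and 12 of 24, with HEXA (105 bp) and both LAMP1 sites (136 bp and 163 bp) added. The FLCN site that lay 34 bp from a summit was also of the CLEAR type, and it fell outside the count because it stood 518 bp upstream of the start. A CLEAR-type E-box and a CRY1 peak thus occurred together at FLCN.

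Over the 1841 promoter E-boxes of all protein-coding genes, 17.6% had a summit within 100 bp (interval 15.9 to 19.4%). Of those in TCACGTGA, 22 of 288 did (7.64%, interval 5.10 to 11.3%). Leaving out the lysosome and autophagy genes, the share was 7.97% of 276 sites, against 19.0% of 1529 sites with other flanks. With the flanks read on either strand, GCACGTGA had 24.2% (interval 18.6 to 30.8%), CCACGTGA 21.2% (17.5 to 25.5%), GCACGTGC 21.1%, CCACGTGC 21.0% and CCACGTGG 9.36% (6.07 to 14.2%). ACACGTGC had 22.3%, ACACGTGA 21.7%, ACACGTGG 16.3% (11.1 to 23.3%) and ACACGTGT 15.2% (7.57 to 28.2%). The lower ends of the intervals of GCACGTGC, CCACGTGC, ACACGTGC and ACACGTGA were 14.6%, 16.4%, 15.1% and 15.2%. CLEAR-type sites thus had an interval below those of GCACGTGA, CCACGTGA, GCACGTGC, CCACGTGC, ACACGTGC and ACACGTGA, and so did CCACGTGG. The CLEAR-type interval overlapped those of CCACGTGG, ACACGTGG and ACACGTGT. Here too, E-boxes of 1 promoter share its summit and are not independent. TCACGTGA made up 12 of the 36 E-boxes in the lysosome and autophagy promoters (33.3%) and 15.6% of E-boxes over all promoters. The E-boxes with a summit in the 48 genes were in CCACGTGA (6 of 14), GCACGTGA (4 of 7), CCACGTGC (1 of 1) and ACACGTGA (1 of 1).

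**Figure D5:**
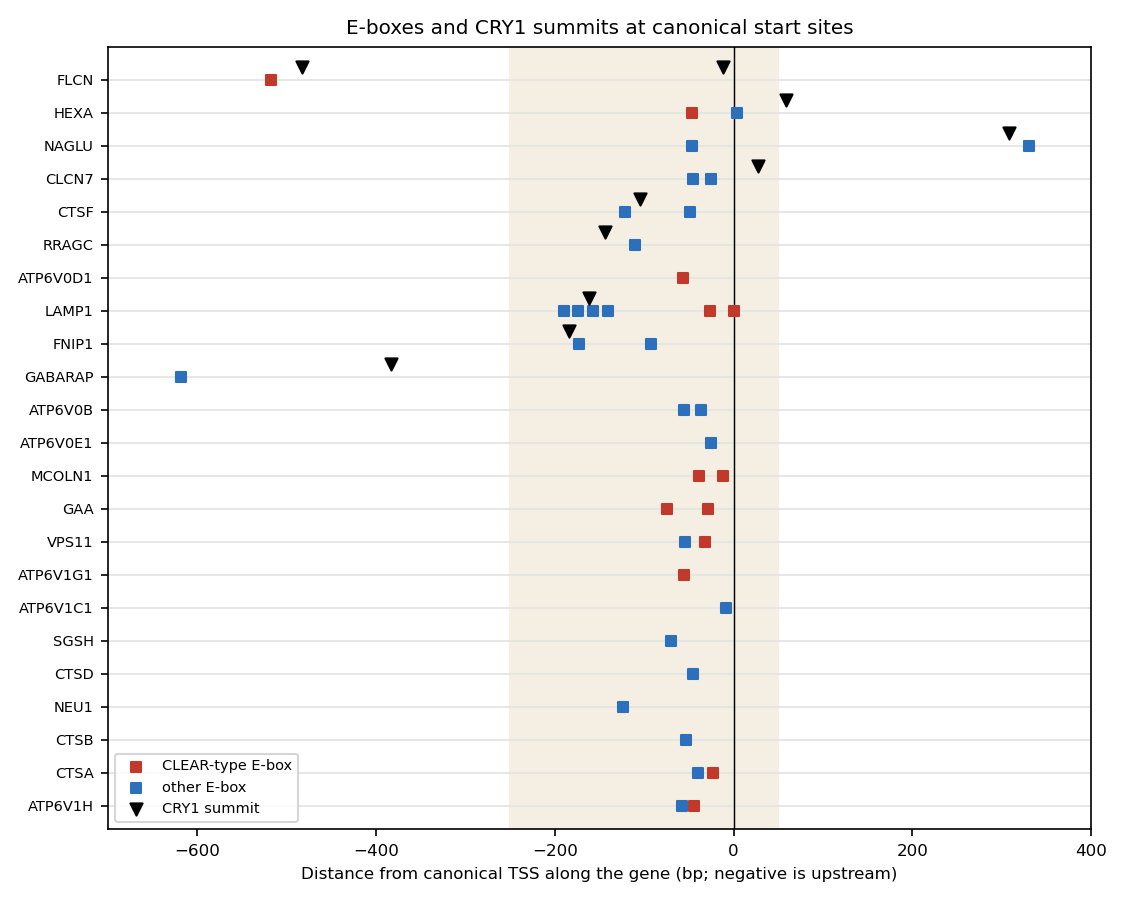
Positions in bp relative to the canonical TSS (0, negative upstream) of E-boxes (squares; red, CLEAR type, blue, other flanks) and CRY1 summits (triangles) for the 21 genes with a promoter E-box and for FLCN and GABARAP, ordered by distance to a summit, with the promoter window shaded; E-boxes outside the window are drawn only where nearest to a summit. At least 1 blue square in the window lay within 50 bp of a triangle at CTSF, RRAGC, LAMP1 and FNIP1, and no red square in the window lay within 100 bp of one.

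Read from the peaks, 10 of the 16 summits near the 48 genes had CACGTG within 50 bp (62.5%, interval 38.6 to 81.5%), in 9 genes. Over all summits within 5 kb of a protein-coding TSS the share was 44.8%, inside that interval, and it was 9 of 41 in the clock list and 8 of 14 in the glycolysis and hypoxia list. GTCACGTG stood at 5 of the 16 (FLCN, RRAGC, LAMP1, FNIP1 and ATP6V0C), against 9.09% of all summits near a coding TSS. The count of 10 fell to 5 when the window was narrowed to 25 bp on each side.

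A wider list did not share the higher count. Among 116 further lysosome and autophagy genes, 10 had a summit within 5 kb (8.62%), close to the 8.22% of all genes, and 17 had a promoter E-box (14.7%). The most enriched were LAMTOR4, a subunit of the Ragulator complex that anchors Rag GTPases (fold enrichment 15.7, summit 42 bp from a TSS), and TECPR1, an autophagosome tethering protein (10.9 by fold enrichment). The TECPR1 summit lay 154 bp from an alternative start. It was 11 bp from an E-box centred 34251 bp downstream of the canonical TSS. The other genes with a summit were ATG12, VPS8, ASAH1, DPP7, SESN1, ARSA, TMEM192 and SMPD1. In this list 8 promoters held TCACGTGA, and 0 of the 8 genes had a summit within 5 kb, which allows a share of up to 37.5%. The factor genes themselves had none nearby, with the nearest summit 140 kb from TFEB, 512 kb from TFEC, 725 kb from MITF and 4087 kb from TFE3.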

How the data were processed

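ChIP-seq reads of 2 CRY1 immunoprecipitations and 1 input from C4-2 cells were aligned by the authors with Bowtie2 to hg19, and peaks were called with MACS2 on both replicates combined at q < 0.05. Use of the input as control is presumed, and handling of duplicate reads is not given in the sources used here. The values deposited for each peak were the fold enrichment, a ratio of pileup to background on a linear scale, −log10 q-value and summit offset. Samples were grouped by their titles. The pooled list gives no replicate error and no read depth.

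Summits were set against GRCh37 with GENCODE release 44 using Python 3.11.15, pandas 2.3.3 and pysam 0.24.0, over 20163 protein-coding genes, of which 19881 had a canonical transcript and so a promoter window. Motifs were counted on both strands. Wilson intervals came from statsmodels 0.14.6. No test was run. Scripts were tested on simulated data. The members and all gene lists were chosen with earlier results of these data known. Named genes were every member with a summit within 5 kb of a TSS or 50 kb of the body, every member with GTCACGTG or TCACGTGA in the promoter, those nearest each limit, and up to 4 genes of highest fold per other list. Named beyond this rule, after their values were seen, were LAMP2, FNIP2, RRAGD, NEU1 and the remaining autophagy genes, to account for members and paralogues, the factor genes, and every further lysosome or autophagy gene with a summit. No sequence from chromosome 8 is printed. A clock gene and a promoter sequence are not reported here.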

Additional observations from a re-analysis of the deposited data

How the results depend on the processing

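Of 57 alternative values, 52 stayed within 1.5 times the reported count or within the interval of the reported median. The number of genes with a summit within 5 kb ranged from 9 (1 canonical transcript per gene) to 13. The number of summits with CACGTG within 50 bp, 10 of 16, fell to 6 with the midpoint of each peak in place of its summit, to 6 of 10 peaks with 1 canonical transcript per gene, and to 5 with 25 bp on each side. With the canonical transcript the count fell along with the number of peaks, at 6 of 10 against 10 of 16. E-boxes at RRAGC and FLCN (34 bp each), ATP6V0C (31 bp) and the intronic NAGLU peak (29 bp) were centred beyond 25 bp. The E-box of the coding-exon NAGLU peak was centred 23 bp from its summit but did not lie wholly inside the window. The cause of the fall with the midpoint was not tested. The 2 other values that moved were counts of single E-boxes by flank at 50 bp and 200 bp, chosen after seeing the data and given with the result. Leaving out a replicate could not be done because the peaks were called on pooled libraries, and weak peaks such as that at the FLCN start cannot be told from peaks of 1 library. No paired analysis was possible because the list carries no values per replicate.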
